A study of Mus musculus with 10 samples.

Results

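The aquaporin family was described in the jejunum of newborn mice. The family was taken as 8 named genes (Aqp1, Aqp3, Aqp4, Aqp5, Aqp7, Aqp8, Aqp9 and Aqp11) of the 24062 genes in the count tables. Aqp8 was chosen by its own CPM in these libraries, which was far lower in KSR23 mice, so its values are given as a description without a test. The other members were named with it as relatives of the same family. A further 4 aquaporin genes of the tables (Mip, Aqp2, Aqp6 and Aqp12) are given only for comparison.

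The study used these mice to examine the early death and poor growth seen with IL-23, a cytokine made of a p19 and a p40 subunit, and profiled the jejunum as an organ of nutrient uptake. WT mice were wild-type C57BL/6 mice, described by the study as littermate controls. KSR23 mice, also C57BL/6, carried an IL-23 cassette in ROSA26, kept silent by a floxed STOP, together with a K14-driven cre recombinase. K14 is a keratin of skin and other stratified epithelia, so the cassette is switched on in keratinocytes. All mice were at postnatal day 5, and each group had 5 libraries of whole jejunum. The study calls them biological replicates. The labels do not tie them to named animals, so p-values measure only the spread between these libraries. In whole tissue, fewer cells of a type and less RNA per cell cannot be told apart.

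Aquaporins are membrane channels that sit in the membrane as tetramers, each subunit with a pore of its own. Classical members (Aqp1, Aqp4, Aqp5 and Aqp8) pass mainly water, and aquaglyceroporins (Aqp3, Aqp7 and Aqp9) also pass glycerol. Aqp11 is an unusual member found in intracellular membranes. Some members, Aqp3 and Aqp8 among them, also pass hydrogen peroxide. In the intestine the absorptive cell, the enterocyte, moves water along with sugars, ions and the products of fat digestion.

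Values are counts of reads per gene, and levels are CPM, the count per 1 M counts of a library (M stands for 1e6), with TMM library factors. Library totals ran from 25.5 to 32 M counts in WT and from 31.2 to 60.9 M in KSR23. A floor of 3 counts stood at 0.0492 to 0.118 CPM, taken on library totals without TMM factors. The counts of the cassette genes in jejunum were 1 to 14 in WT and 8 to 34 in KSR23 for Il23a (p19), and 0 to 5 in WT and 9 to 40 in KSR23 for Il12b (p40). Il12b was called higher in KSR23 jejunum (2.32 on the log2 scale; adjusted p = 0.00364, edgeR likelihood ratio test) and Il23a did not pass (0.95; adjusted p = 0.27). Libraries 4 and 5 of each group stood apart. Their CPM was the highest or lowest of the group for 8.75 to 14.7% of 9766 well-counted genes, against 48.9 to 68.1% for libraries 1 to 3, where libraries that vary alike would each give 40%. Whether they are samples independent of the others was not tested, and if they are not, the SDs and p-values over 5 libraries per group understate the error. The fold change of each member and the counts of each list are therefore also given for replicates 1 to 3 alone.

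Of the 8 members, 7 had enough counts to be tested, 6 of them besides Aqp8. Aqp7 was the only one of these 6 to pass an adjusted p of 0.05 in edgeR's likelihood ratio test. Of all 17632 genes tested, 18.5% passed in either direction and 8.76% passed with a lower level in KSR23, so 1 of 6 is near the background and is no result about the family as a whole. The quasi-likelihood test passed 15.4% of genes (6.91% lower and 8.47% higher in KSR23) and again Aqp7 alone of the 6. In replicates 1 to 3 alone, 3.36% of genes passed (1.35% lower and 2.01% higher), and Aqp7 was once more the only one. The median log2 fold change of all genes was 0.03.

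Aqp8, a water channel of the gut epithelium, had the highest level of the family in WT and fell to a low level in KSR23. The WT libraries (replicates 1 to 5) held 12515, 3968, 7275, 8762 and 9264 counts, or 387, 140, 267, 252 and 348 CPM. The KSR23 libraries held 146, 15, 113, 70 and 49 counts, or 2.08, 0.484, 4.49, 1.24 and 1.38 CPM. Every KSR23 library thus lay far under the lowest WT library, while each of its counts stayed above the floor of 3. The mean level went from 279 ± 95.6 to 1.93 ± 1.54 CPM (SD, n = 5 each). The log2 fold change (KSR23 over WT) was -7.18 (SE 0.48), a level 145-fold lower. In replicates 1 to 3 alone it was -6.78 (SE 0.75).

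**Figure D1:**
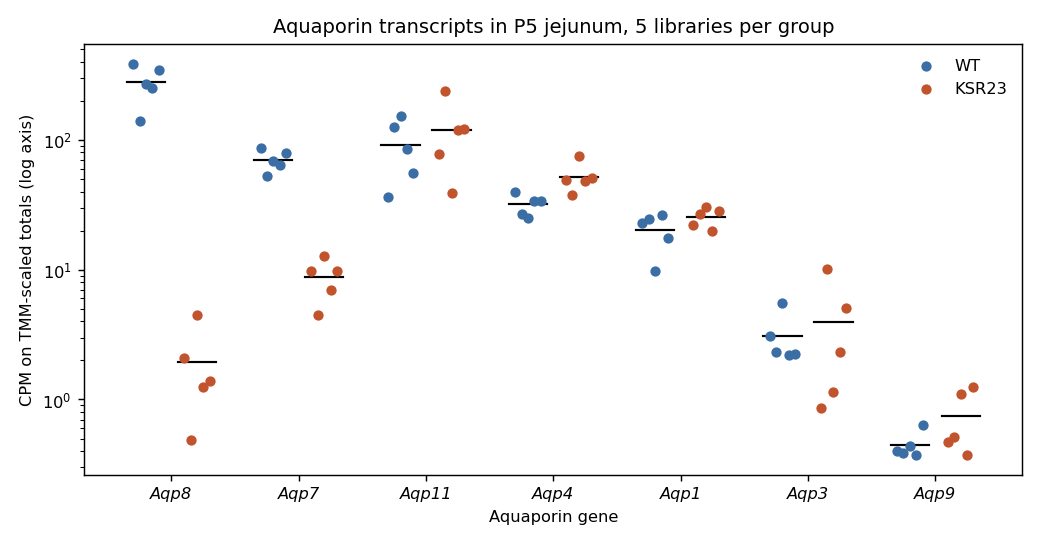
Level of each aquaporin (CPM, log axis) in 5 WT and 5 KSR23 libraries, 1 point per library with a line at the group mean. Aqp8 and Aqp7 are the members whose groups do not overlap, with Aqp8 between 140 and 387 CPM in WT and between 0.484 and 4.49 CPM in KSR23.

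Aqp8 (ENSMUSG00000030762.11) lies on the plus strand of chromosome 7 at 123462291 to 123468004 (build mm10, GENCODE M21). No exon of it overlaps an exon of another gene, and none of its 75-base stretches occurs in another gene, so its counts are not shared with a relative. The bases just before its start are shown because this is the gene with the largest difference of the family, and a stretch upstream of Aqp7 is set beside them. The Aqp7 stretch stops short of the gene's start, and the bases between are not shown. They come from the RefSeq promoter table (GRCm38.p6), 5′ to 3′, and capitals mark a GATA-type box (AGATAA).

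Aqp8 (chr7:123462044-123462290, plus strand): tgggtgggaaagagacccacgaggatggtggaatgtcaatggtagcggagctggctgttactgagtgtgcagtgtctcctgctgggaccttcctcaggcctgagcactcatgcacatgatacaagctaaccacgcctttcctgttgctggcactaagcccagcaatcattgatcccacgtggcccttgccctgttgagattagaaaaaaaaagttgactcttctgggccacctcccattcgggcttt
Aqp7 (chr4:41048238-41048386, minus strand): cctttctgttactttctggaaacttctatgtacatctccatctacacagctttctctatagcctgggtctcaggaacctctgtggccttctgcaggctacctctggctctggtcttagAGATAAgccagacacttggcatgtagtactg

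The 300-base promoter windows of the members in that table, which had no window for Aqp4, were searched on both strands for the GATA-type box and for the STAT-type palindrome (TTC, 3 free bases, GAA). GATA factors act in small-intestinal epithelium, and STAT factors carry cytokine signals to the genome. The GATA-type box occurred among the members only in 1 of the 2 Aqp7 windows, where its first base lay at -132 from the start. Among the comparison aquaporins the window of Aqp2 also held it, at -202. This box occurs in 11.2% of all 32851 windows. The STAT-type palindrome, found in 8.3% of all windows, occurred in no member window. A match or its absence describes these letters only.

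Aqp7, an aquaglyceroporin that passes water and glycerol, was the other member with a large difference. Its counts were 2804, 1490, 1879, 2232 and 2093 in the WT libraries and 689, 138, 323, 392 and 348 in the KSR23 libraries. In CPM these were 86.8, 52.7, 68.9, 64.3 and 78.6 in WT and 9.8, 4.45, 12.8, 6.94 and 9.82 in KSR23. The groups did not overlap, as for 14.4% of all genes tested. Aqp7 fell from 70.3 ± 13.1 to 8.77 ± 3.19 CPM (SD, n = 5 each), or 8.01-fold lower. On the log2 scale this was -3.00 (SE 0.33), at an adjusted p of 1.65e-15 in edgeR's likelihood ratio test. In edgeR's quasi-likelihood test the adjusted p was 5.36e-05. A called fall at least as large was seen in 226 genes, 1.28% of those tested. Replicates 1 to 3 alone gave -2.91 (SE 0.58), at an adjusted p of 0.000368 in the likelihood ratio test and 0.0479 in the quasi-likelihood test.

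The log2 ratio of Aqp7 to each other tested member except Aqp8 was also taken within each library. Since Aqp7 is named here for its fall in these same libraries, the ratios are a description without a test. The ratio to Aqp4 differed most, at 1.14 ± 0.22 in WT and -2.61 ± 0.31 in KSR23 (SD), a difference of -3.75. The differences were -3.60 against Aqp9, -3.46 against Aqp1, -3.39 against Aqp11 and -2.93 against Aqp3. In each ratio the 5 KSR23 libraries lay below every WT library.

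**Figure D2:**
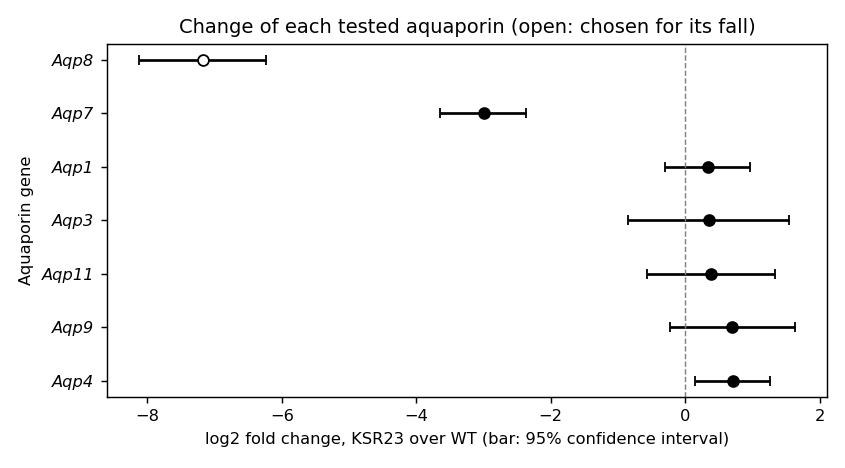
Log2 fold change (KSR23 over WT) of each aquaporin from all 10 libraries, with its 95% confidence interval as a bar. Aqp8 (open point, -7.18, a description) and Aqp7 (-3.00) lie far below 0, and the intervals of Aqp1, Aqp3, Aqp9 and Aqp11 span 0.

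Aqp7 lies on the minus strand of chromosome 4 at 41033074 to 41048139, and Aqp3 lies 44582 bases further along on the same strand (41092722 to 41098183). The closest other gene of the tables was Nfx1, 7081 bases from Aqp7, which did not pass (0.28 on the log2 scale, SE 0.30; adjusted p = 0.566). Of the 75-base stretches of Aqp7, 0.364% occur in another gene.

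To compare levels between members, CPM was divided by the exon length of each gene in kilobases (kb). On this scale the WT order was Aqp8 (176 ± 60.5 CPM per kb, SD), Aqp7 (24.8 ± 4.64), Aqp11 (9.66 ± 5.06), Aqp1 (7.7 ± 2.57), Aqp4 (5.11 ± 0.951), Aqp3 (1.68 ± 0.769) and Aqp9 (0.108 ± 0.0262). Aqp8 came first and Aqp7 second in each WT library. Aqp11, Aqp1 and Aqp4 overlapped in their ranges (3.88 to 16.1, 3.69 to 10.1 and 3.99 to 6.36), so the order among these 3 lies within the spread of the libraries.

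In KSR23 the order was Aqp11 (12.6 ± 7.93 CPM per kb), Aqp1 (9.73 ± 1.66), Aqp4 (8.36 ± 2.19), Aqp7 (3.1 ± 1.13), Aqp3 (2.14 ± 2.12), Aqp8 (1.22 ± 0.972) and Aqp9 (0.179 ± 0.0973). First place went to Aqp11 in replicates 2, 4 and 5, to Aqp1 in replicate 1 and to Aqp4 in replicate 3. No single member led all KSR23 libraries. The ranges of Aqp7, Aqp3 and Aqp8 overlapped (1.57 to 4.54, 0.467 to 5.57 and 0.306 to 2.84). Exon lengths enter this order directly: that of Aqp11 was 9.42 kb and that of Aqp8 1.58 kb, and a kit primed at the poly(A) tail need not cover long transcripts evenly.

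Aqp8 made up 76.7% ± 6.98 of the summed aquaporin level per kb in WT (65.4 to 82.6%) and 3.51% ± 2.8 in KSR23 (0.619 to 7.91%). On the CPM scale, with no division by length, it made up 54.9% ± 11.9 and 1.09% ± 1.01. The share of Aqp7 per kb was 11.3% ± 1.4 in WT (10.4 to 13.7%) and 8.75% ± 3.73 in KSR23 (3.19 to 12.6%), with ranges that overlapped. On the CPM scale it was 14.1% ± 0.764 (13.1 to 15%) and 4.66% ± 2.46 (1.4 to 7.86%). Its mean share was thus lower in KSR23 on both scales, and the size of the difference depends on the scale. The summed level was 226 ± 61.6 CPM per kb in WT (136 to 297) and 37.4 ± 7.59 in KSR23 (29.9 to 49.4). Without Aqp7 and Aqp8 it was 24.3 ± 3.93 in WT and 33.1 ± 8.82 in KSR23, with ranges of 19.5 to 28.4 and 25.1 to 47.5 that overlapped. The difference between the summed levels thus lay in Aqp8 and Aqp7.

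**Figure D3:**
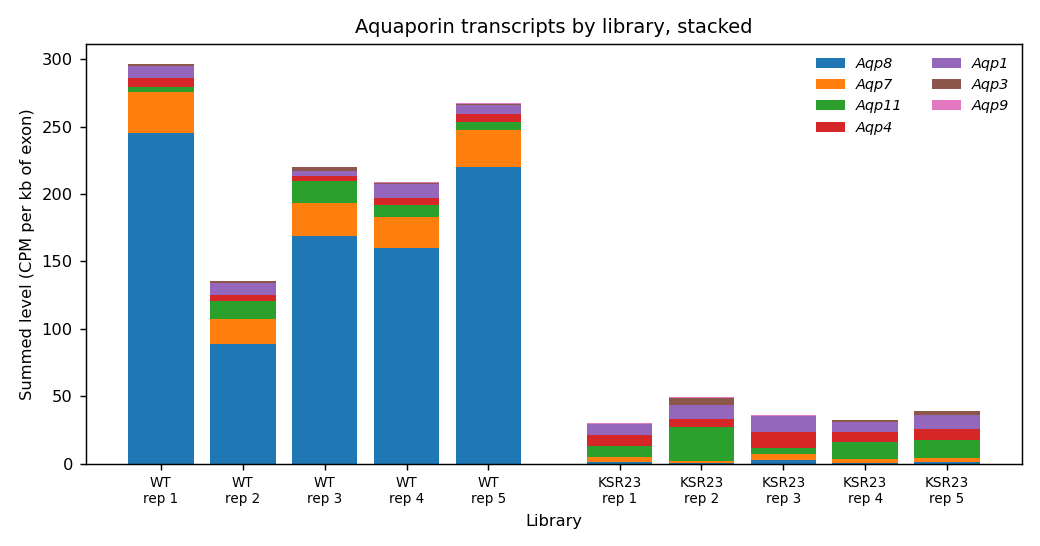
Summed aquaporin level (CPM per kb of exon) in each of the 10 libraries, stacked by member. Aqp8 fills 65.4 to 82.6% of each WT bar, and the KSR23 bars end between 29.9 and 49.4 CPM per kb.

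Aqp4, a water channel best known from brain glia and the basolateral membrane of epithelia, leaned the other way without passing the test. Its levels were 39.6, 27, 24.8, 33.8 and 33.8 CPM in WT and 49.1, 37.9, 74.7, 47.9 and 50.8 CPM in KSR23. In 4 of 5 KSR23 libraries the level was above every WT library, and replicate 2 lay under the highest WT value. The means were 31.8 ± 5.93 and 52.1 ± 13.6 CPM (SD, n = 5 each), and the log2 fold change was 0.71 (SE 0.29, 95% confidence interval 0.15 to 1.27; adjusted p = 0.0656, edgeR likelihood ratio test). The quasi-likelihood test gave an adjusted p of 0.0555. DESeq2 gave 0.0453, and the likelihood ratio test passed without KSR23 replicate 1 (0.78, adjusted p = 0.0491) or without KSR23 replicate 2 (0.85, adjusted p = 0.0269). Replicates 1 to 3 alone gave 0.86 (SE 0.54; adjusted p = 0.544).

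Aqp1, the water channel of capillary endothelium, mesothelium and red blood cells, showed levels of 22.9, 24.4, 9.69, 26.5 and 17.6 CPM in WT and 22, 27, 30.3, 20 and 28.4 CPM in KSR23. The groups overlapped, and WT replicate 3 was the lowest. The log2 fold change was 0.34 (SE 0.33, 95% confidence interval -0.30 to 0.97; adjusted p = 0.53, edgeR likelihood ratio test), and 0.51 (adjusted p = 0.811) in replicates 1 to 3 alone. Of 8 endothelial markers, 3 fell (Cdh5, Egfl7 and Emcn) and 5 did not pass, beside 8.76% of all genes called lower. Their median log2 fold change was -0.40, and their summed level was 237 to 311 CPM in WT and 199 to 263 CPM in KSR23. The count of 3 was 1 with the replicate block, 1 without WT replicate 4 or KSR23 replicate 4, 2 without WT replicate 5 or KSR23 replicate 5, 4 without KSR23 replicate 3, and 0 in replicates 1 to 3 alone. None of the 5 mesothelial markers passed, and 1 rose without KSR23 replicate 1 (median -0.13; 729 to 913 CPM summed in WT, 693 to 1.54e+03 in KSR23). That sum was carried by Krt19 (786 CPM in WT, 1.08e+03 in KSR23), a keratin that simple epithelia also express. Of 7 red blood cell genes, 3 were tested and none passed (median 0.36), and the 4 globin genes were listed at 0 in all 10 libraries. No gene of these last 2 lists passed in replicates 1 to 3 alone. The part of these cell types in the Aqp1 level was not tested.

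Aqp11 varied widely between libraries of 1 group. Its levels were 36.5, 126, 152, 84.9 and 56 CPM in WT and 77.2, 238, 38.7, 119 and 122 CPM in KSR23. The highest value was 4.15-fold the lowest in WT and 6.15-fold the lowest in KSR23, and the groups overlapped over most of their range. The log2 fold change was 0.39 (SE 0.49, 95% confidence interval -0.56 to 1.34; adjusted p = 0.645, edgeR likelihood ratio test), and 0.21 (adjusted p = 0.955) in replicates 1 to 3 alone.

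Among the aquaglyceroporins, Aqp3 and Aqp9 stood at low levels in both groups. Aqp3, known from the basolateral membrane of epithelia and from skin, held 100, 66, 150, 76 and 60 counts in WT and 60, 316, 29, 132 and 179 counts in KSR23. KSR23 replicates gave both the highest and the lowest CPM of all 10 libraries (10.2 and 0.853), an 11.9-fold range against 2.51-fold in WT. Its log2 fold change of 0.35 (SE 0.61, 95% confidence interval -0.85 to 1.54; adjusted p = 0.76, edgeR likelihood ratio test) turned to -0.33 without KSR23 replicate 2, so no direction can be given. The first 3 replicates alone gave 0.19 (adjusted p = 0.97). Aqp9, the glycerol channel of liver, held 13, 11, 12, 13 and 17 counts in WT and 33, 16, 28, 21 and 44 counts in KSR23, at 0.449 ± 0.109 and 0.742 ± 0.403 CPM. These libraries overlapped, and the log2 fold change was 0.70 (SE 0.48, 95% confidence interval -0.23 to 1.63; adjusted p = 0.33), and 0.78 (adjusted p = 0.739) in replicates 1 to 3 alone.

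Aqp5, a water channel of glands and lung, had no count in any of the 10 libraries. On totals without TMM factors this allows up to 0.0492 CPM at the deepest library and 0.118 CPM at the shallowest. Its neighbours on chromosome 15, Aqp2 (the vasopressin-regulated channel of the kidney) and Aqp6, were also at 0 in all 10. Aqp5 lies at 99590782 to 99594829, between Aqp2 (99579055 to 99584547) and Aqp6 (99601400 to 99605477). Mip, the water channel of the lens, had 0 to 5 counts per library, and 55.5% of its 75-base stretches occur in another gene. Aqp12, a pancreatic member, had 0 to 8 counts. Neither passed (adjusted p = 0.818 and 0.886).

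The order of libraries within a group was compared between members. In WT Aqp8 and Aqp7 both ran, from high to low, through replicates 1, 5, 3, 4 and 2. In KSR23 the order was 3, 1, 5, 4 and 2 for Aqp8 and 3, 5, 1, 4 and 2 for Aqp7, whose replicates 1 and 5 were nearly equal, so replicate 3 was highest and replicate 2 lowest for both. Aqp4, whose mean was higher in KSR23, ran there in the same order as Aqp7 (3, 5, 1, 4 and 2), but in WT through 1, 4, 5, 2 and 3. Aqp11 was in a different order, with replicate 2 highest and replicate 3 lowest in KSR23. Libraries 4 and 5 were seldom the highest or lowest of their group. A shared order is therefore less unusual than among libraries that vary alike, and how many genes share it was not counted. With the group means removed, the Pearson r of log2 CPM with Aqp8 was 0.95 for Aqp7 and 0.86 for Aqp4. It was -0.01 for Aqp1, -0.68 for Aqp3 and -0.89 for Aqp11.

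**Figure D4:**
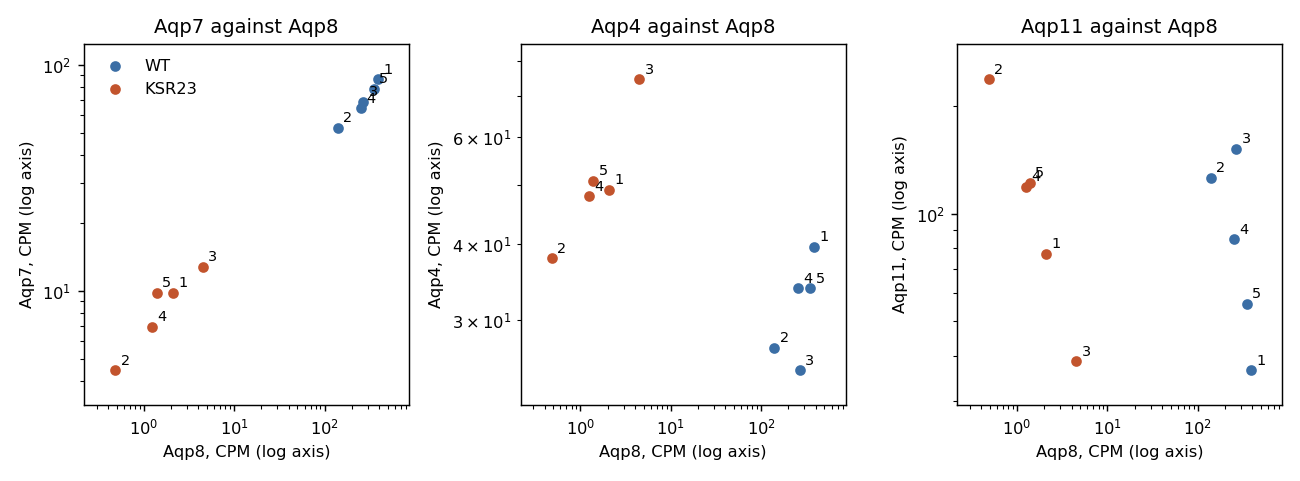
Levels (CPM, log axes) of Aqp7, Aqp4 and Aqp11, each against Aqp8, 1 point per library, numbered by replicate. Aqp8 and Aqp7 run in the same order in WT and differ in the order of replicates 1 and 5 in KSR23.

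Over the 10 libraries and 12889 genes with a mean of at least 1 CPM, Aqp7 had the log2 CPM pattern most like that of Aqp8 (Pearson r = 0.996). The next were Pdia2 (a protein disulfide isomerase; 0.995), Lrat (which makes retinyl esters; 0.995), Spp2 (0.994) and Ssbp3 (0.994). For Aqp7 the closest were Lrat (0.996), Aqp8, Spp2 (0.994), Sult1d1 (a sulfotransferase; 0.993) and Sdr16c5 (a retinol dehydrogenase; 0.992). These r values are carried by the difference between the groups, which all points share, and by the choice of the highest among many genes. With the group means removed, r with Aqp8 was 0.953 for Aqp7, 0.930 for Pdia2, 0.916 for Lrat, 0.938 for Spp2 and 0.846 for Ssbp3. Other genes were more like Aqp8 on that scale, with Efcab2 (0.983), Xaf1 (0.978), Slc17a4 (0.972), Npl (0.971) and Aif1l (0.968) highest, so Aqp7 was not the closest gene once the group difference was removed. The log2 fold changes of Pdia2, Lrat, Spp2 and Ssbp3 were -3.54, -2.88, -3.03 and -2.47.

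Markers of other cell types were read beside the fall of Aqp8 and Aqp7. The counts of the lists stand against 9.73% of all genes called higher and 8.76% called lower. Of 8 enterocyte markers, Krt20 (log2 fold change 2.22) rose, Fabp2 (-1.19) fell and 6 did not pass, with a median of -0.28. Krt20 alone passed in replicates 1 to 3. The number that rose was 2 without KSR23 replicate 1 or 2, and the number that fell was 2 without KSR23 replicate 3 and with library totals alone as the scaling. Of 6 goblet cell markers, 5 rose, among them Muc2 (1.95), with a median of 1.07, and in replicates 1 to 3 alone 1 passed, Muc2. Clca1 passed narrowly (adjusted p = 0.0473, edgeR likelihood ratio test) and did not pass the quasi-likelihood test (adjusted p = 0.0634). The count was also 4 with other scalings, with no filter and with the replicate block. It was 4 without any single WT library or KSR23 replicate 2 or 3, and 3 without KSR23 replicate 5. Of 13 pancreatic acinar genes, 9 were tested. Of these 7 fell and 2 (Ctrl and Cuzd1) did not pass, with a median of -4.23 (-3.25 with the gene at 0 in a group set at its bound). In replicates 1 to 3 alone 3 fell, Ctrb1, Cela1 and Sycn, and when 5 counts were required in every library 1 fell. Their summed level was 100 to 211 CPM in WT and 6.47 to 16.2 CPM in KSR23, carried by Ctrb1 (82.2 CPM in WT) and Cela1 (70.6 CPM). The other acinar genes had WT means of 1.15 CPM (Cela3b) or less, such as Sycn at 0.382 and Pnlip at 0.0173. The study describes digestive enzymes that differed in the jejunum as also made there. Ptf1a, the acinar transcription factor, was at 0 in all 10 libraries.

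The acinar sum, carried in WT by Ctrb1 and Cela1, ran through the WT libraries in the same order as Aqp8 (211, 100, 151, 138 and 188 CPM in replicates 1 to 5). How many genes share this order was not counted. Aqp8 was above that sum in each WT library. In each KSR23 library Aqp8 was below it. In KSR23 the sum was highest in replicate 3, as for Aqp8 and Aqp7, and lowest in replicates 1 and 2 (6.47 and 6.48 CPM). Of 6 adipocyte genes, 3 were tested and 2 fell (Cidec, -0.82, and Fabp4, -1.30; median -0.82), none of them in replicates 1 to 3 alone. Over all 10 libraries 8.76% of all genes were called lower. The defining genes Adipoq and Lep were at 0 in all 10 libraries, and the summed level was 670 to 736 CPM in WT and 284 to 499 CPM in KSR23. The part of these cell types in the fall of Aqp7 and Aqp8 was not tested.

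Further marker lists were also counted, again beside 9.73% of all genes called higher and 8.76% called lower. Of 7 neutrophil genes tested, Elane rose and Retnlg (-2.78) fell (median 0.37, or 0.08 with the gene at 0 at its bound; summed level 19.3 to 29.5 CPM in WT, 6.61 to 14.7 in KSR23). Elane rests on 0 to 7 counts per KSR23 library against 0 in WT. It did not pass the quasi-likelihood test (adjusted p = 0.0838), DESeq2, the filter of 5 counts in every library, replicates 1 to 3 alone, or the fit without KSR23 replicate 2. Retnlg passed in replicates 1 to 3 alone. Of 6 skeletal muscle and glial genes tested, which bear on Aqp4, S100b (-6.33) fell and 5 did not pass (median -0.05; 49.7 to 86.1 CPM in WT, 11.2 to 21.1 in KSR23), and S100b passed in replicates 1 to 3 alone too. Without KSR23 replicate 3 another gene of this list rose, and none fell among those with 5 counts in every library. Of 5 colon and stomach genes tested, Atp4a (-2.57) fell and 4 did not pass (median 0.41, or 0.00 with the gene at 0 at its bound). Atp4a did not pass the quasi-likelihood test (adjusted p = 0.0516), the replicate block, replicates 1 to 3 alone, the filter of 5 counts in every library, or the fit without WT replicate 2. Their summed level was 0.477 to 2.02 CPM in WT and 0.226 to 1.27 CPM in KSR23.

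Aquaglyceroporins supply and remove glycerol, so genes of glycerol and triglyceride handling were read beside Aqp7. Of 11 tested, 2 rose, 1 fell and 8 did not pass, with a median log2 fold change of 0.33. That is 3 of 11 called, beside 18.5% of all genes, and nothing is read from the count. Gpd2, a mitochondrial glycerol-3-phosphate dehydrogenase, rose from 108 ± 22.7 to 323 ± 155 CPM (SD; log2 fold change 1.57; adjusted p = 0.000605). Agpat9, an acyltransferase of glycerol-3-phosphate, rose (1.15; adjusted p = 0.00511). Mgll, which frees glycerol from monoglyceride, fell (-1.06; adjusted p = 0.037) but did not pass the quasi-likelihood test (adjusted p = 0.0596). Its call was also lost with library totals alone, with the replicate block, and without WT replicate 2, 3 or 4 or KSR23 replicate 2, 3, 4 or 5. Without WT replicate 1 or KSR23 replicate 1, 2 genes of the list fell. Gyk, the glycerol kinase, had a log2 fold change of 0.41 (adjusted p = 0.445). None of the 11 passed with replicates 1 to 3 alone.

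Water follows solute, and 15 genes of solute and ion transport were listed for that reason. Of these, 7 rose, none fell and 8 did not pass, with a median log2 fold change of 0.94. The background of genes with a higher level in KSR23 was 9.73%. Slc9a2, a sodium-proton exchanger, rose from 1.69 ± 0.911 to 15.8 ± 15.1 CPM (SD; log2 fold change 3.23). Slc26a6, an anion exchanger, rose from 48.3 ± 10.7 to 364 ± 172 CPM (2.91; adjusted p = 1.3e-10). Cftr, the chloride channel of secretion, rose from 27.2 ± 7.33 to 145 ± 55.8 CPM (2.42; adjusted p = 2.61e-10). The others were Slc9a3 (2.61), Slc4a4 (1.25), the sodium-glucose cotransporter gene Slc5a1 (1.14; adjusted p = 0.00316) and the potassium channel subunit gene Kcne3 (0.94). In replicates 1 to 3 alone, Slc9a2, Slc26a6 and Cftr passed the likelihood ratio test, and no gene of the list passed the quasi-likelihood test.

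Because some aquaporins pass hydrogen peroxide, 7 genes of its production were read as well. Of these, 4 rose (Duox2, Duoxa1, Duoxa2 and Nox1), Nox4 fell and 2 did not pass. Of all genes tested, 9.73% were called higher and 8.76% lower. Duox1 and Duoxa1 had no WT count and Nox1 had 0 to 3, so these genes entered the test only through KSR23. With 5 counts required in every library 1 rose, and 2 fell with DESeq2, with library totals alone and without KSR23 replicate 3. Duox2, a peroxide-making oxidase of epithelia, was at 0.101 ± 0.12 CPM in WT and 30.8 ± 4.62 CPM in KSR23 (SD; log2 fold change 8.15). Nox4, an oxidase that releases hydrogen peroxide, fell from 52.6 ± 23.5 to 3.3 ± 1.96 CPM (-4.00; adjusted p = 3.73e-11). The median was 4.83, the value of Nox1, or 2.55 with genes at 0 in WT set at their bound. Among replicates 1 to 3 alone, 3 rose and Nox4 fell among 6 tested, and Nox1 did not pass (adjusted p = 0.261, likelihood ratio test). With the quasi-likelihood test on these replicates 2 rose and none fell.

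**Figure D5:**
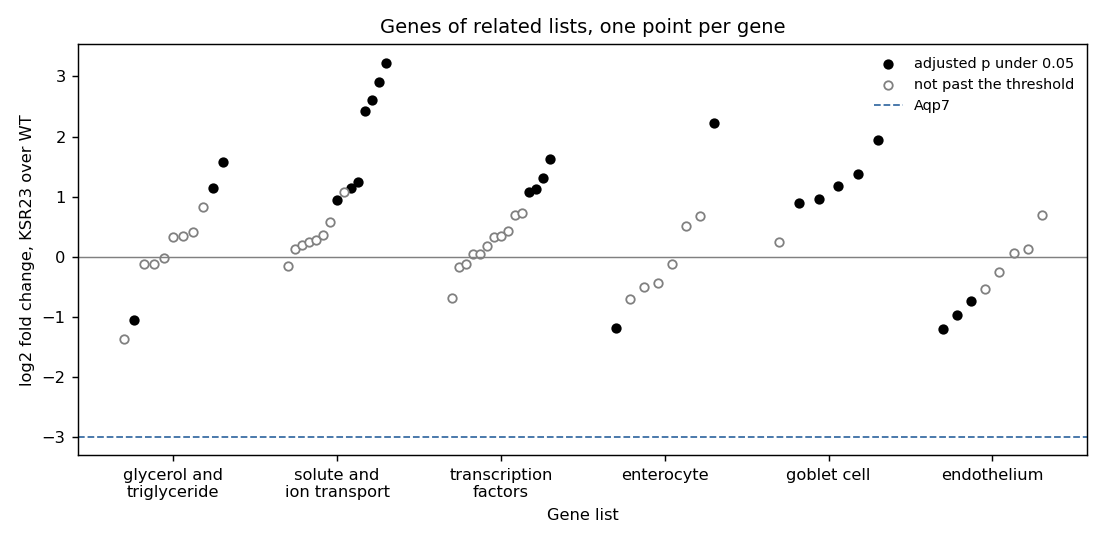
Log2 fold change (KSR23 over WT) of the glycerol, solute transport, transcription factor, enterocyte, goblet cell and endothelium lists, 1 point per gene, filled where it passed the test, with Aqp7 as a dashed line. The solute transport list holds 7 genes that rose and none that fell, while the glycerol list is spread around 0.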

How the data were processed

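Per the labels, 100 pg of total RNA of each jejunum was reverse transcribed from oligo-dT, amplified by PCR and read from a single end for 75 bases. There were no molecular identifiers, so counting error is all that the floors cover. The submitters' processing notes name TopHat2 2.1.0, HTSeq 0.6.1p1, edgeR 3.18.1 and build mm10. The deposited counts were whole numbers for 24062 genes, not normalized by the authors. Reads with more than 1 alignment (8.62 to 17.1 M per library) entered no gene, and the counter's 5 rows that name no gene were not used (reads in no gene were 4.79 to 7.52%). The strand setting is not given in the sources used here.

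Groups and replicate numbers came from the sample titles. A gene was kept when any library held at least 5 counts of it (17632 genes). edgeR 4.0.16 (R 4.3.3) was run with TMM factors, no covariate and the study's own choice of test, the likelihood ratio test, with Benjamini-Hochberg adjustment over all genes and a threshold of 0.05. Means ± SD are of TMM-scaled CPM. Likeness used log2 CPM with a prior count of 2. Summaries were made in Python 3.11.15 with SciPy 1.17.1. The code was tested on simulated data. The fits were repeated with edgeR's quasi-likelihood test, DESeq2 1.42.0, other scalings and filters, and with a replicate block, replicates 1 to 3 alone and each library left out in turn.

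The members and lists were chosen with earlier results of these data known. The rule for naming took all members, the 4 other aquaporins, genes of the lists (first those with the largest change) and the 5 genes most like Aqp8 and Aqp7. Of the gene symbols, 22758 were found in GENCODE M21, which gave positions and exon lengths. Proteins were not analysed here, and 3 genes of the lists are left out and not reported here.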

Additional observations from a re-analysis of the deposited data

How the results depend on the processing

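Aqp1, Aqp7, Aqp8, Aqp9 and Aqp11 kept their direction and, where tested, their side of the threshold in all 19 alternatives. Aqp11 passed in none, and its log2 fold change of 0.39 ran from 0.03 (without KSR23 replicate 2) to 0.65. Most of its size was thus lost without that 1 library, and no direction is read. The range was 0.16 (without WT replicate 3) to 0.51 for Aqp1 and 0.42 to 0.92 for Aqp9. For Aqp7 the log2 fold change lay between -3.18 and -2.79, and for Aqp8, with no test, between -7.73 and -6.78. The number of members called besides Aqp8 was 1 in the fit reported and 2 with DESeq2, and it ran from 1 to 2 when single libraries were left out, the addition being Aqp4 in each case. The direction of Aqp3 turned with the replicate block (-0.13) and without KSR23 replicate 2 (-0.33; single libraries left out gave -0.33 to 0.66), and the cause was not tested. The replicate block gave 1 member called and 2202 genes in all, against 3261 without it. Same-numbered libraries did not deviate together (correlations from -0.548 to 0.248, and 1 of 10 libraries correlated best with its own number), so the numbers are not taken as pairs. With replicates 1 to 3 alone, which leaves fewer samples, 579 genes passed, and 140 with the quasi-likelihood test, an alternative chosen after seeing the data. That alternative left no call in the enterocyte, goblet cell and solute transport lists, and 1 acinar gene called lower. Other scalings moved the median of all genes to 0.00 and -0.03 from 0.03. Depth limits Aqp9 (11 to 44 counts), Mip and Aqp12. Gene counts in whole jejunum give no protein level and no position in the tissue.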

Other observations

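Transcription factors of the enterocyte and nuclear receptors were also read. Of 15 tested, 4 rose, none fell and 11 did not pass, with a median log2 fold change of 0.35, where 9.73% of all genes rose and 8.76% fell. With library totals alone and without KSR23 replicate 3, 1 of them fell. The genes that rose were Klf4 (log2 fold change 1.63), a factor of differentiated epithelium, Hnf4g (1.31), Prdm1 (1.13), a factor of the fetal and suckling intestine, and Hnf4a (1.08). Cdx2 (0.72), Gata4 (0.35), Pparg (0.32) and Ppara (-0.12) did not pass. None of the 15 passed with replicates 1 to 3 alone.

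Genes within 100000 bases of Aqp8 were read beside it, and none of those tested was called lower. Lcmt1, 31933 bases away on the same strand, had a log2 fold change of -0.64 (SE 0.31) and an adjusted p of 0.146 in edgeR's likelihood ratio test, and Arhgap17, 92376 bases away, one of 1.12 with an adjusted p of 0.15. Zkscan2, 7380 bases away on the other strand, was called higher (adjusted p = 0.00138), from 0 counts in all WT libraries to a mean of 0.145 CPM in KSR23, near the floor of 3 counts.

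In 14 groups of 5 values (the 7 detected members in each group) no library stood apart by Dixon's test, where 0.7 would by chance. The closest was Aqp9 in WT replicate 5, whose gap to the next library was 0.702 of the range against a critical share of 0.71.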
